A study of Mus musculus with 32 samples.

Results

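The 34 genes followed here mark astrocytes and radial glia, and were measured in mouse brain tumour cultures driven by HRAS, MYC and their combinations. The 34 genes were listed by name, and a gene counted where the array had a probe set annotated with its symbol alone. All 34 had one, among 19938 genes measured. Every culture began with neurosphere cells of Trp53-deficient mice (strain B6;129-Trp53tm1Brd), grown from the wall of the lateral ventricle after birth, so the lack of Trp53 is common to all groups. The cells were made to overexpress the named genes and transplanted into the brain. From the tumours, cells that still carried the cassette of transgene and fluorescent marker were sorted by flow cytometry and grown again as neurospheres before RNA extraction. The 6 MYC arrays, 5 MYC+Ezh2 arrays and 3 MYC+Bmi1 arrays came from tumours labelled PNET. The 5 HRAS arrays and 2 HRAS+Bmi1 arrays came from tumours labelled glioma, and the 7 HRAS+MYC arrays from tumours labelled AT/RT-like. A further 2 arrays, called MYC then HRAS here, came from secondary tumours of PNET cells that were given HRAS. The last 2 arrays, called HRAS then MYC, came from secondary tumours of glioma cells that were given MYC. Ages of the mice, the promoter of the transgenes and the form of HRAS are not stated in the labels, and no array of untransformed cells was analysed here. The labels do not say which arrays of a group came from separate tumours or animals. The p-values therefore measure the spread between arrays, which may be technical.

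Radial glia are the stem cells of the developing brain, and astrocytes and the stem cells of the ventricle wall descend from them. Both types share filament proteins, glutamate transporters, a brain fatty acid binding protein and regulators such as the nuclear factor I family, which promotes the switch from making neurons to making glia. Mature astrocytes add proteins that clear glutamate, move water and ions and couple neighbouring cells through gap junctions.

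Promoter windows of 28 of the 34 genes were found in the RefSeq table for assembly GRCm38.p6. The 250 bases before the start site were searched on both strands for 6 short motifs. The nuclear factor I motif TTGGC was found in 14 of the 28 genes (50%), against 45.3% of the 27025 genes with a window. The AP-1 motif TGANTCA, bound by factors that act below RAS signalling, was found in 3 of the 28 (10.7%, against 7.82%), namely Gja1, Acsl6 and Nfix. The RBPJ motif TGGGAA of Notch signalling was found in 10 (35.7%, against 24.1%) and the SOX motif ACAAT in 9 (32.1%, against 30.9%). The STAT motif TTCNNNGAA, whose match can contain an RBPJ match, was found in 4 (14.3%, against 8.13%), and the E-box CACGTG bound by MYC in 2 (7.14%, against 6.86%). A gene with several windows counted if any of them held the motif. The 28 genes had 41 windows and the 27025 genes 32851, so the 28 had more windows per gene, which raises their shares. Windows of 4 genes whose values are described at length are shown 5′ to 3′ along the gene's strand, ending at the base before the start site. Fabp7 (chr10:57784673-57784922, + strand) and Mlc1 (chr15:88978554-88978803, - strand) are shown because the first ranged most widely among the MYC arrays and the second had the largest rise among the genes that passed in HRAS+Bmi1 against HRAS, and capitals mark TTGGC or its reverse complement. Its first base lies 55 bases before the start in both. Gja1 (chr10:56377050-56377299, + strand) rose and Nfix (chr8:84780083-84780332, - strand, the first of its 4 windows in the table) fell in HRAS cultures, and capitals mark the AP-1 motif, 19 and 81 bases before the start.
Fabp7: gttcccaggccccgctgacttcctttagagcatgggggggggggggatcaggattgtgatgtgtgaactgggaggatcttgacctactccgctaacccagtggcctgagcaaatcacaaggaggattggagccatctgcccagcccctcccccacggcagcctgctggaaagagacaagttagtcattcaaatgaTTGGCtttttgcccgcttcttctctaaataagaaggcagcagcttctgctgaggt
Mlc1: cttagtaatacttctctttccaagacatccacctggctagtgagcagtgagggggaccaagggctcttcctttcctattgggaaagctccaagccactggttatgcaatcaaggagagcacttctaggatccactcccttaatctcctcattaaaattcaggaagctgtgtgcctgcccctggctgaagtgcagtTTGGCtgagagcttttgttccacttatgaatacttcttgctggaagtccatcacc
Gja1: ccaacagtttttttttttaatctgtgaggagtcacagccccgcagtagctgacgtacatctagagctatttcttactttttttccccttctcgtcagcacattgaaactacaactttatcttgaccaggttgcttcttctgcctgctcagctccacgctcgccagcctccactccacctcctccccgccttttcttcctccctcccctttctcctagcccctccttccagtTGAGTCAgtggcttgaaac
Nfix: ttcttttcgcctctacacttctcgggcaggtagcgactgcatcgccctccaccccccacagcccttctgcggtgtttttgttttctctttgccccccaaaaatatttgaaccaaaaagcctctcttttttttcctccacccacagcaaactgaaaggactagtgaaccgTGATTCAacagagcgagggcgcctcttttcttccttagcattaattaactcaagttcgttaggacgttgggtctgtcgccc
A match describes the letters only and was not tested as a binding site.

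Values are log2 expression values from Affymetrix Mouse Gene 1.0 ST arrays, normalised by the authors, and a difference of 1 is a 2-fold change. Array medians lay between 5.59 and 5.79. Some arrays stood apart from their group in these genes. MYC replicates 4 and 5 were low in many of them, MYC replicate 6 was high in many, and HRAS replicate 3 and replicate 1 of MYC then HRAS were high in several, as given gene by gene below. MYC replicates 4, 5 and 6 and HRAS replicate 3 also stood apart over all genes. When limma weighted arrays by how closely they followed their group, these had the lowest weights (0.323, 0.345, 0.388 and 0.369). Markers of host brain cells that a sort could have let through varied to different extents over the 32 arrays. The microglial genes Aif1 and Csf1r lay between 4.13 and 4.67 and between 4.18 and 4.89, and the endothelial genes Tek and Cldn5 between 4.37 and 5.19 and between 5.20 and 5.88. Cd68 (5.39 to 11.21), Flt1 (5.46 to 9.57), Pecam1 (4.75 to 7.50), the microglial gene Tmem119 (4.74 to 6.81) and the endothelial gene Cdh5 (4.41 to 5.88) ranged further. Tmem119 and Cdh5 were highest in the 2 HRAS then MYC arrays (6.63 and 6.81 for Tmem119, 5.75 and 5.88 for Cdh5), and HRAS replicate 5 was highest for Pecam1 and read 6.35 for Tmem119. For all 5 of these genes, their part in the results was not tested. An array measures a whole culture, so fewer cells of a type and less RNA per cell cannot be told apart.

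**Figure D1:**
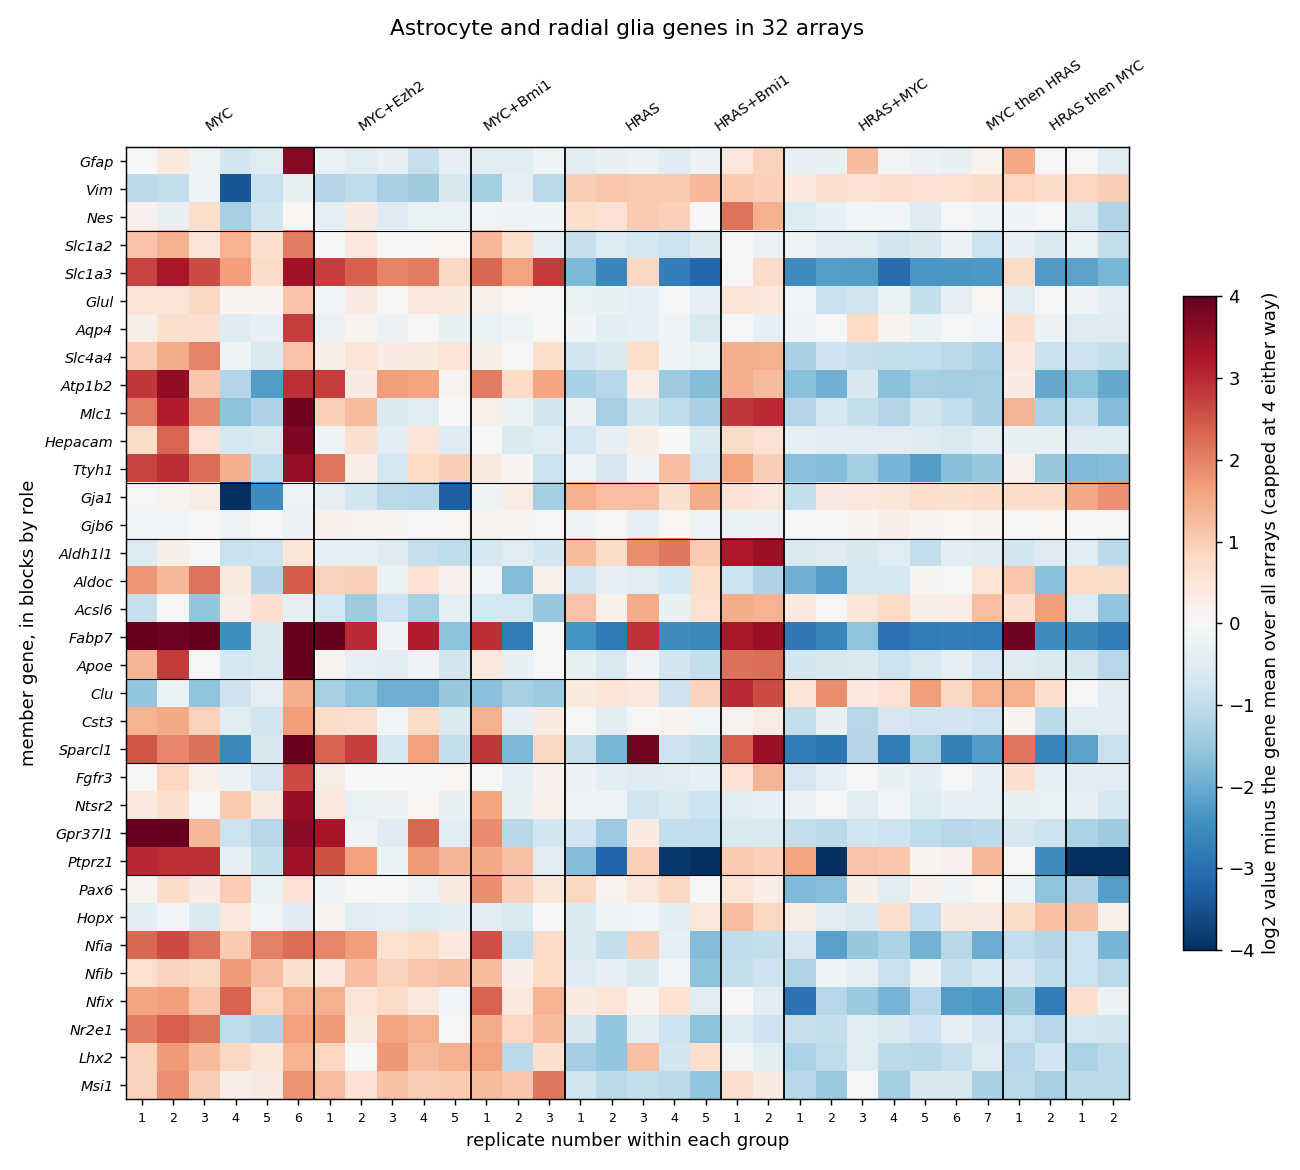
The 34 genes (rows, in blocks by role) in the 32 arrays (columns, in 8 groups separated by black lines, with replicate numbers below). Colour is the log2 value minus the gene's mean over all arrays, capped at 4 either way: MYC replicates 4 and 5 hold the 2 lowest MYC values of 24 genes, and MYC replicate 6 holds the highest of 18.

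The first question was how HRAS gliomas and MYC tumours differed in these genes. In HRAS against MYC, 22 of the 34 fell and 5 rose, while 7 did not pass. A gene passed at an adjusted p under 0.05 in limma with Benjamini-Hochberg adjustment over all genes. That is 79.4% of the listed genes, where 33.4% of all 19938 genes passed (15.4% higher and 18% lower), and the median log2 difference was -1.33 against -0.03 over all genes. The glutamate transporter gene Slc1a3, the receptor phosphatase gene Ptprz1 and the fatty acid binding protein gene Fabp7 fell most, with log2 differences of -4.28, -4.21 and -3.90. Gja1, Vim, Aldh1l1, Acsl6 and Nes rose. Of the 27 calls, 20 (4 higher and 16 lower) were kept whichever of the 11 arrays was left out. All these fits share a single spread per gene over all groups. The 34 genes ranged more widely among MYC arrays (median range 3.14) than among HRAS arrays (1.10). When only the HRAS and MYC arrays were fitted, 14 genes passed (3 higher and 11 lower). Without MYC replicates 4 and 5, 29 passed (4 higher and 25 lower), of which 26 were among the 27, and without HRAS replicate 3 as well 28 passed. MYC replicates 4 and 5 hold the 2 lowest MYC values of 24 of the 34 genes, so leaving them out enlarges most falls by construction. Here and below, values without them show how far a result rests on those arrays and add no support. Shares of all genes that passed with arrays left out or with other fits are not given, so such counts are not read as particular to the list.

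The second question was what happened when both oncogenes were present from the start. In HRAS+MYC against MYC, 23 of the 34 genes fell and 5 rose (82.4%, where 34.2% of all genes passed, 15.8% higher and 18.4% lower), with a median of -1.62 against 0.03 over all genes. Of these 28 calls, 24 were kept whichever of the 13 arrays was left out, and without MYC replicates 4 and 5 there were 30 calls (4 higher and 26 lower), 27 of them among the 28. Both comparisons use the same MYC arrays, so they are not independent of each other. In HRAS+MYC against HRAS, 5 of the 34 fell and 2 rose (20.6%, where 24.7% of all genes passed, 11.7% higher and 13% lower), a share near the background, with a median of -0.21 against 0.05. The 7 genes were Ptprz1 and Gjb6 (higher) and Aldh1l1, Nfix, Ttyh1, Pax6 and Nes (lower), and 4 passed without HRAS+MYC replicate 4, or without HRAS replicate 3 or 4. Slc4a4 passed too without HRAS replicate 1 (-0.96, adjusted p 0.0371), and Nfia without HRAS replicate 5 (-1.28, adjusted p 0.0482).

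**Figure D2:**
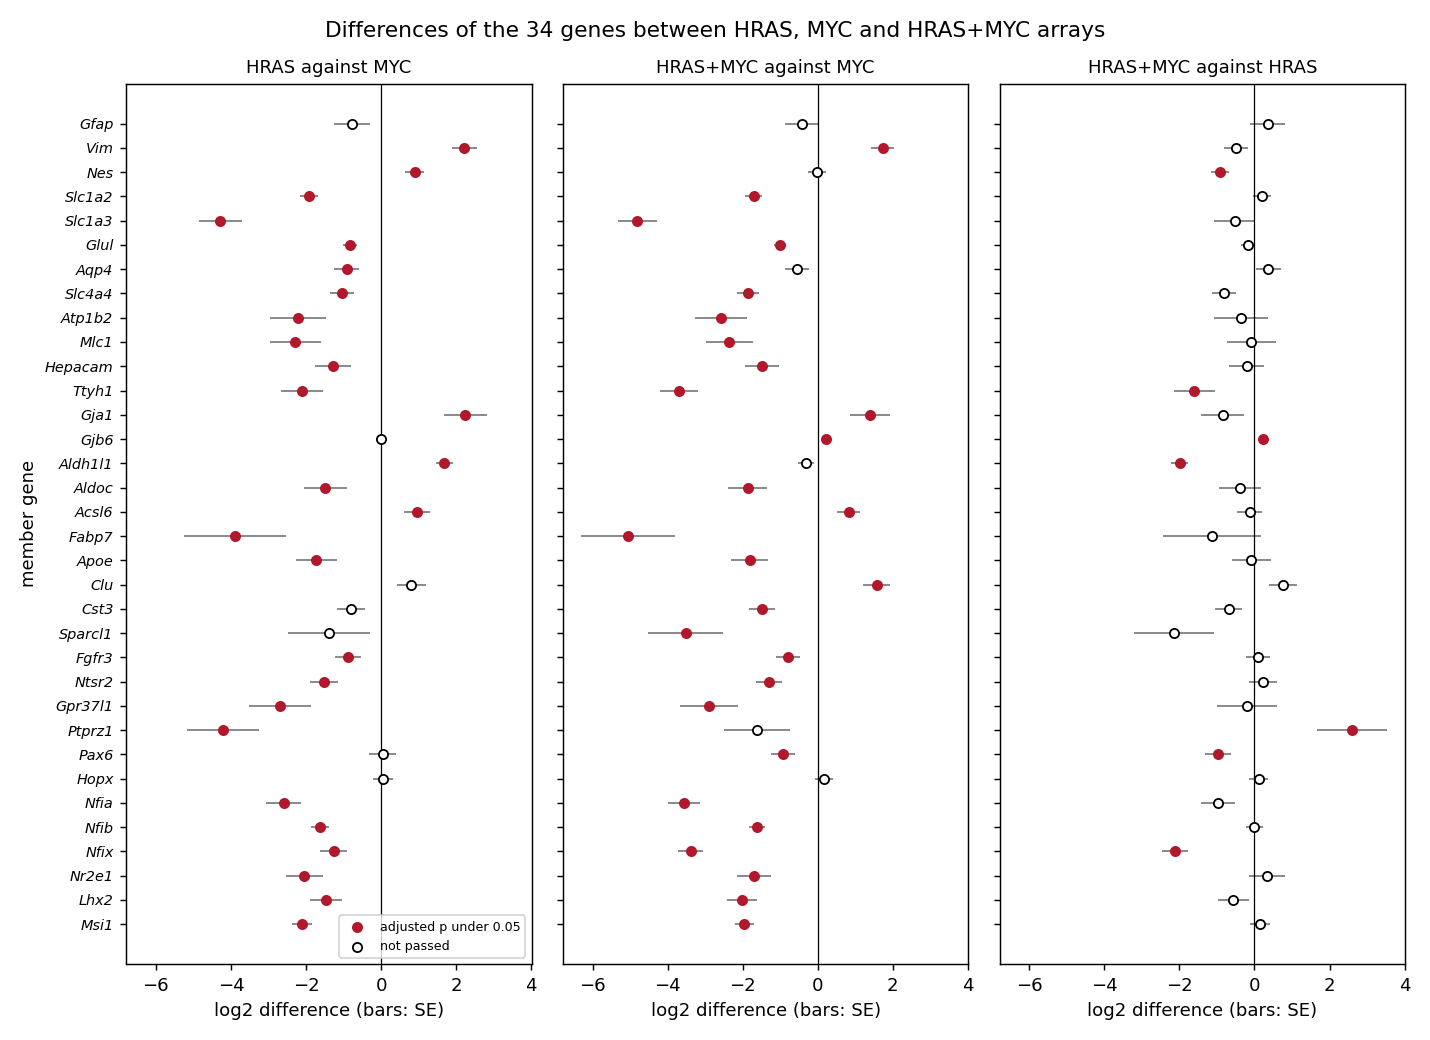
Log2 differences of the 34 genes in HRAS against MYC, HRAS+MYC against MYC and HRAS+MYC against HRAS (x axis, with the standard error of the fit as bars). Filled points passed at an adjusted p under 0.05: most lie left of 0 in the first and second panels (22 and 23 genes), and 7 genes are filled in the third.

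Among the 3 filament genes, Vim separated the groups most plainly. Vim encodes vimentin, the filament protein of radial glia and immature astrocytes. Its values ran from 9.16 to 12.38 in MYC arrays with a median of 11.65. The 5 HRAS arrays read 13.56, 13.65, 13.60, 13.62 and 13.86, and the 7 HRAS+MYC arrays ran from 12.98 to 13.34 with a median of 13.18. Every HRAS and HRAS+MYC array was above every MYC array. Vim rose by 2.22 ± 0.331 (SE of the fit) in HRAS against MYC (4.65-fold, adjusted p 5.53e-06) and by 1.73 ± 0.305 in HRAS+MYC against MYC (adjusted p 4.81e-05). It read 13.51 and 13.61 with Bmi1 added to HRAS, and 13.31 to 13.56 in the 4 secondary tumour cultures. In MYC+Ezh2 it ran from 11.13 to 11.92 and in MYC+Bmi1 from 11.20 to 12.21, within the range of the MYC arrays.

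Nes encodes nestin, the filament protein of neural stem cells. Its values were 10.29, 10.18, 10.62, 10.54 and 9.58 in HRAS arrays, 8.27 to 10.30 in MYC arrays (median 9.47) and 9.04 to 9.53 in HRAS+MYC arrays (median 9.42). The HRAS arrays overlapped the MYC arrays but lay above all 7 HRAS+MYC arrays. Nes rose in HRAS against MYC by 0.90 ± 0.250 (adjusted p 0.00549). Once MYC replicates 4 and 5 were omitted, which read 8.27 and 8.78, that difference was 0.49 (adjusted p 0.0764). Nes fell in HRAS+MYC against HRAS by 0.92 ± 0.242 (adjusted p 0.00564). Gfap encodes the filament protein of mature and reactive astrocytes. It read 5.01, 5.13, 5.21, 4.92 and 5.20 in HRAS arrays, 5.03 to 6.71 in HRAS+MYC arrays (median 5.20) and 4.71 to 9.08 in MYC arrays (median 5.34). MYC replicate 6 alone reached 9.08, the other 5 MYC arrays lay at or below 5.83, and the groups overlapped. Gfap did not pass in HRAS against MYC (-0.78 ± 0.483, adjusted p 0.242), although without MYC replicates 4 and 5 it read -1.30 (adjusted p 0.0460). With HRAS+MYC set against MYC, it read -0.43 ± 0.443 (adjusted p 0.492).

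Of the 9 genes for the uptake of glutamate and the transport of ions and water, all 9 fell in HRAS against MYC and 8 fell in HRAS+MYC against MYC. Slc1a3 encodes the glutamate transporter GLAST, a marker of radial glia and astrocytes. It ran from 8.78 to 11.39 in MYC arrays (median 10.68). The HRAS arrays read 6.24, 5.41, 8.87, 5.29 and 4.88, and the HRAS+MYC arrays ran from 4.99 to 5.84 (median 5.69). No HRAS+MYC array reached the MYC range, and of the HRAS arrays only replicate 3 did. Slc1a3 fell by 4.28 ± 0.567 in HRAS against MYC (19.4-fold, adjusted p 8.83e-07) and fell by 4.81 ± 0.521 in HRAS+MYC against MYC (28.1-fold, adjusted p 2.62e-08). With MYC replicates 4 and 5 omitted, the falls read -4.87 and -5.41. Slc1a2, which encodes the main glutamate transporter of mature astrocytes, ran from 6.78 to 8.30 in MYC arrays (median 7.52). It read 5.33, 5.70, 5.55, 5.39 and 5.68 in HRAS arrays and 5.38 to 6.10 in HRAS+MYC arrays (median 5.75). Every MYC array was above all of these. It fell, with differences of -1.92 ± 0.237 and -1.71 ± 0.218 in the respective comparisons (adjusted p 3.13e-07 and 3.94e-07). Glul encodes glutamine synthetase, which turns the glutamate taken up into glutamine. It read 10.12 to 11.17 in MYC arrays (median 10.56), 9.77, 9.71, 9.65, 9.94 and 9.62 in HRAS arrays and 9.08 to 10.09 in HRAS+MYC arrays (median 9.67). The MYC arrays did not overlap either group. Glul fell by 0.83 ± 0.183 (adjusted p 6.78e-04) and fell by 1.01 ± 0.168 (adjusted p 2.22e-05).

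Membrane genes of this block ranged widely among MYC arrays. Mlc1 encodes a membrane protein of astrocyte contacts and endfeet, and Hepacam its adhesion partner. Mlc1 ran from 5.41 to 10.93 in MYC arrays (median 9.06), against 6.84, 5.73, 6.32, 6.03 and 5.75 in HRAS arrays and 5.75 to 6.36 in HRAS+MYC arrays (median 6.09). The 4 MYC arrays other than replicates 4 and 5 were above all arrays of both groups, and those 2 were not. Mlc1 fell by 2.28 ± 0.682 in HRAS against MYC (adjusted p 0.00990) and fell by 2.36 ± 0.626 in HRAS+MYC against MYC (adjusted p 0.00391). Without replicates 4 and 5 the differences were -3.67 and -3.75, more than 1.5 times as large. Hepacam showed the same 2 low arrays (4.48 and 4.59 in a MYC range up to 8.92), with HRAS arrays at 4.49, 4.86, 5.47, 5.20 and 4.62 and HRAS+MYC arrays at 4.59 to 4.79 (median 4.73). The groups overlapped. Its fall of 1.28 ± 0.483 in HRAS against MYC (adjusted p 0.0420) did not hold on omission of HRAS replicate 1, 2, 4 or 5, or of MYC replicate 2 or 6, with adjusted p from 0.0534 to 0.123 and a difference of -0.73 without MYC replicate 6. In HRAS+MYC against MYC it fell by 1.49 ± 0.444 (adjusted p 0.00957), or fell by 0.95 without MYC replicate 6. Without MYC replicates 4 and 5 the differences of Hepacam were -2.11 and -2.32.

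Atp1b2 encodes a subunit of the sodium-potassium pump that is abundant in glia. It read 5.23 to 11.03 in MYC arrays (median 9.43), 6.18, 6.34, 7.78, 6.00 and 5.74 in HRAS arrays and 5.55 to 6.84 in HRAS+MYC arrays (median 6.10). MYC replicates 4 and 5 (6.29 and 5.23) overlapped both groups, and the other MYC arrays did not. Atp1b2 fell by 2.22 ± 0.744 in HRAS against MYC (adjusted p 0.0208) and missed the threshold on omission of HRAS replicate 5, or of MYC replicate 1, 2 or 6 (adjusted p from 0.0537 to 0.0658). It fell by 2.58 ± 0.683 in HRAS+MYC against MYC (adjusted p 0.00383). With MYC replicates 4 and 5 omitted, these differences were -3.66 and -4.01. Ttyh1 encodes a membrane protein of the tweety family, found in neural stem cells and astrocytes. It read 6.41 to 10.93 in MYC arrays (median 9.90), 7.22, 6.74, 7.24, 8.66 and 6.61 in HRAS arrays and 5.19 to 6.03 in HRAS+MYC arrays (median 5.72). The HRAS+MYC arrays were below every array of both other groups. Ttyh1 fell by 2.10 ± 0.559 in HRAS against MYC (adjusted p 0.00393) and fell by 3.70 ± 0.514 in HRAS+MYC against MYC (adjusted p 1.59e-06). From HRAS to HRAS+MYC arrays Ttyh1 also fell by 1.60 ± 0.541 (adjusted p 0.0300), but missed the threshold on omission of HRAS+MYC replicate 5, or of HRAS replicate 3 or 4 (adjusted p from 0.0501 to 0.115).

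Slc4a4 encodes a sodium bicarbonate cotransporter of astrocytes. It read 5.36 to 7.91 in MYC arrays (median 7.01), 5.13, 5.35, 6.63, 5.75 and 5.66 in HRAS arrays and 4.65 to 5.09 in HRAS+MYC arrays (median 4.96). All HRAS+MYC arrays were below all arrays of the other two groups. Slc4a4 fell by 1.04 ± 0.325 in HRAS against MYC (adjusted p 0.0130) and fell by 1.86 ± 0.298 in HRAS+MYC against MYC (adjusted p 1.38e-05). Once MYC replicates 4 and 5 were omitted, the first difference was -1.63. Aqp4 encodes the water channel of astrocyte endfeet. It read 4.24 to 7.52 in MYC arrays (median 5.19), 4.60, 4.32, 4.39, 4.61 and 4.14 in HRAS arrays and 4.49 to 5.53 in HRAS+MYC arrays (median 4.66). Only MYC replicate 6 exceeded 5.53, and the groups overlapped. Its fall of 0.92 ± 0.342 in HRAS against MYC (adjusted p 0.0387) read -0.48 without MYC replicate 6 (adjusted p 0.0821). The call also failed on omission of HRAS replicate 2, 3 or 5, or of MYC replicate 2 or 3 (adjusted p from 0.0593), and the difference was -1.42 without MYC replicates 4 and 5. Between HRAS+MYC and MYC arrays Aqp4 did not pass (-0.55 ± 0.314, adjusted p 0.191), and without MYC replicates 4 and 5 it read -1.05 (adjusted p 0.00660).

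Of the 2 gap junction genes, Gja1 rose in HRAS against MYC and Gjb6 did not pass, and both rose in HRAS+MYC against MYC. Gja1 encodes the connexin of the main astrocyte gap junctions. It read 5.66 to 9.98 in MYC arrays (median 9.55), 11.11, 10.90, 10.88, 10.34 and 11.16 in HRAS arrays and 8.74 to 10.42 in HRAS+MYC arrays (median 10.16). Every HRAS array was above every MYC array, while HRAS+MYC arrays overlapped them. Gja1 rose by 2.25 ± 0.582 in HRAS against MYC (4.74-fold, adjusted p 0.00318), and the rise was 1.15 (adjusted p 0.0317) once MYC replicates 4 and 5 (5.66 and 7.22) were omitted. In HRAS+MYC against MYC it rose by 1.39 ± 0.535 (adjusted p 0.0440), but read 0.30 without MYC replicates 4 and 5 (adjusted p 0.619). That call also failed on omission of MYC replicate 4 or 5 alone (0.80 without replicate 4) or any of HRAS+MYC replicates 2 to 7, with adjusted p from 0.0602 to 0.173. Gja1 was highest in the 2 HRAS then MYC arrays, at 11.23 and 11.53. Gjb6, a second astrocyte connexin gene, lay between 4.06 and 4.68 in all 32 arrays, and its rise of 0.21 ± 0.0662 in HRAS+MYC against MYC was small (1.16-fold, adjusted p 0.0122). It also rose in HRAS+MYC against HRAS, by 0.22 ± 0.0697 (adjusted p 0.0219) and missed the threshold on omission of HRAS+MYC replicate 4, or of HRAS replicate 3 or 5 (adjusted p from 0.0524 to 0.0993).

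Metabolic and lipid genes were split. Aldh1l1 encodes a folate enzyme used as a general astrocyte marker. It read 7.12, 6.64, 7.71, 7.97 and 6.91 in HRAS arrays, 4.96 to 6.34 in MYC arrays (median 5.54) and 4.88 to 5.44 in HRAS+MYC arrays (median 5.35). All 5 HRAS arrays were above all arrays of both other groups. Aldh1l1 rose by 1.69 ± 0.232 in HRAS against MYC (3.22-fold, adjusted p 1.64e-06) and fell by 1.99 ± 0.224 in HRAS+MYC against HRAS (3.98-fold lower, adjusted p 2.36e-07). With HRAS+MYC set against MYC, it read -0.31 ± 0.213 (adjusted p 0.285), and -0.61 without MYC replicates 4 and 5 (adjusted p 0.0274). Acsl6 encodes an enzyme that activates long fatty acids for membrane lipids. It read 8.67, 7.73, 9.02, 7.23 and 8.14 in HRAS arrays, 6.00 to 8.20 in MYC arrays (median 7.31) and 7.57 to 8.74 in HRAS+MYC arrays (median 7.92), and the groups overlapped. It rose by 0.96 ± 0.341 in HRAS against MYC (adjusted p 0.0305) and missed the threshold on omission of HRAS replicate 1, 3 or 5, or of MYC replicate 1 or 3 (adjusted p from 0.0505 to 0.110). It rose by 0.82 ± 0.313 in HRAS+MYC against MYC (adjusted p 0.0429) and missed the threshold on omission of HRAS+MYC replicate 1, 3, 4 or 7, or of MYC replicate 1, 3 or 6 (adjusted p from 0.0534 to 0.143).

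Fabp7 encodes the fatty acid binding protein of radial glia, and it had the widest spread of the list. It read 4.54 to 12.23 in MYC arrays (median 10.98), 4.60, 4.17, 9.89, 4.50 and 4.43 in HRAS arrays and 4.05 to 5.38 in HRAS+MYC arrays (median 4.20). MYC replicate 4 (4.54) lay among the HRAS arrays. MYC replicate 5 (6.42) and HRAS replicate 3 (9.89) lay between the other HRAS arrays (4.60 or less) and MYC replicates 1, 2, 3 and 6 (10.88 or more). Fabp7 fell by 3.90 ± 1.36 in HRAS against MYC (14.9-fold, adjusted p 0.0261). That call did not hold on omission of HRAS replicate 1, 2, 4 or 5, or of MYC replicate 1, 2, 3 or 6 (adjusted p from 0.0538 to 0.0662), and the difference was -5.87 without MYC replicates 4 and 5 (adjusted p 5.56e-04). In HRAS+MYC against MYC Fabp7 fell by 5.05 ± 1.25 (33.0-fold, adjusted p 0.00207). Apoe encodes the lipid carrier that astrocytes secrete. It read 7.41 to 12.28 in MYC arrays (median 8.76), 7.81, 7.48, 7.95, 7.36 and 7.15 in HRAS arrays and 7.24 to 7.70 in HRAS+MYC arrays (median 7.47). The values of MYC replicates 4 and 5 lay within the range of the HRAS arrays, and the other MYC arrays above it. Apoe fell by 1.72 ± 0.538 (adjusted p 0.0134) and fell by 1.81 ± 0.494 (adjusted p 0.00495), and the differences were -2.63 and -2.72 without MYC replicates 4 and 5. Without MYC replicate 6, the highest array, they were -1.12 and -1.21. Aldoc encodes the brain form of a glycolytic enzyme. It read 8.94 to 12.54 in MYC arrays (median 11.66), 9.33, 9.76, 9.62, 9.40 and 10.82 in HRAS arrays and 7.89 to 10.65 in HRAS+MYC arrays (median 9.41), and MYC replicate 5 was the lowest MYC array. Its fall of 1.48 ± 0.573 in HRAS against MYC (adjusted p 0.0471) did not hold on omission of any of HRAS replicates 1 to 4, or of MYC replicate 1, 2, 3 or 6 (adjusted p from 0.0719 to 0.114). It was larger without MYC replicates 4 and 5 (-2.25, adjusted p 0.00157). Between HRAS+MYC and MYC arrays it fell by 1.87 ± 0.526 (adjusted p 0.00634).

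The 3 genes of secreted proteins did not pass in HRAS against MYC. Clu encodes clusterin, a secreted chaperone. It read 5.97 to 9.03 in MYC arrays (median 6.97), 7.95, 8.08, 7.98, 6.74 and 8.50 in HRAS arrays and 7.99 to 9.44 in HRAS+MYC arrays (median 8.39), with overlap. It rose by 1.57 ± 0.357 in HRAS+MYC against MYC (2.97-fold, adjusted p 9.33e-04) and read 0.81 ± 0.389 in HRAS against MYC (adjusted p 0.115). Without HRAS replicate 4 that difference was 1.09 (adjusted p 0.0358), and without MYC replicate 6 it was 1.21 (adjusted p 0.00313). Cst3 encodes an inhibitor of cysteine proteases. It read 10.98 to 13.43 in MYC arrays (median 12.92), 11.70, 11.34, 11.82, 11.91 and 11.66 in HRAS arrays and 10.63 to 11.47 in HRAS+MYC arrays (median 10.96). MYC replicates 4 and 5 (11.31 and 10.98) were the only MYC arrays not above both groups. Cst3 fell by 1.48 ± 0.341 in HRAS+MYC against MYC (adjusted p 0.00104). In HRAS against MYC it read -0.79 ± 0.371 (adjusted p 0.107), -1.02 without MYC replicate 4 (adjusted p 0.0302) and -1.09 without MYC replicate 5 (adjusted p 0.0132). Sparcl1 encodes a matrix protein that astrocytes secrete at synapses. It read 4.94 to 11.48 in MYC arrays (median 9.57), 6.60, 5.67, 11.33, 6.67 and 6.57 in HRAS arrays and 4.62 to 6.34 in HRAS+MYC arrays (median 4.81). HRAS replicate 3 lay near the top of the MYC range, and MYC replicates 4 and 5 (4.94 and 6.88) lay far below the other MYC arrays. Sparcl1 fell by 3.52 ± 1.00 in HRAS+MYC against MYC (11.5-fold, adjusted p 0.00688) and read -1.38 ± 1.09 in HRAS against MYC (adjusted p 0.384). Without MYC replicates 4 and 5 it read -2.80 there (adjusted p 0.0429), and -3.79 without HRAS replicate 3 as well (adjusted p 0.00236). The arrays left out are the ones whose values oppose a fall, so these readings are no support for it.

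All 4 receptor genes fell in HRAS against MYC, and 3 fell in HRAS+MYC against MYC. Ptprz1 encodes a receptor phosphatase of radial glia and glial progenitors. It read 6.78 to 11.09 in MYC arrays (median 10.65), 5.99, 4.55, 8.67, 3.86 and 3.61 in HRAS arrays and 3.74 to 9.30 in HRAS+MYC arrays (median 8.81). HRAS replicate 3 overlapped the MYC arrays, and HRAS+MYC replicate 2 (3.74) lay far below the other 6 HRAS+MYC arrays (7.82 to 9.30). Ptprz1 fell by 4.21 ± 0.963 in HRAS against MYC (18.4-fold, adjusted p 9.97e-04) and read -1.62 ± 0.885 in HRAS+MYC against MYC (adjusted p 0.168). Once MYC replicates 4 and 5 were omitted, the second difference was -2.86 (adjusted p 0.0129). Ptprz1 rose by 2.59 ± 0.931 in HRAS+MYC against HRAS (6.01-fold, adjusted p 0.0420). This call did not hold on omission of HRAS+MYC replicate 1, 3, 4, 5, 6 or 7, or of HRAS replicate 2, 4 or 5, with adjusted p from 0.0544 to 0.126. Gpr37l1 encodes a G protein-coupled receptor of astrocytes. It read 5.46 to 11.04 in MYC arrays (median 9.04), 5.83, 5.13, 6.91, 5.62 and 5.61 in HRAS arrays and 5.44 to 5.87 in HRAS+MYC arrays (median 5.59). The low MYC replicates, 4 and 5, lay among the HRAS arrays, and the other 4 MYC arrays above them. It fell by 2.69 ± 0.837 (adjusted p 0.0130) and fell by 2.89 ± 0.769 (adjusted p 0.00402), and the differences were -4.14 and -4.34 without those 2 arrays.

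Ntsr2, the gene of a neurotensin receptor of astrocytes, read 6.41 to 9.92 in MYC arrays (median 7.00), 6.26, 6.26, 5.66, 5.83 and 5.60 in HRAS arrays and 5.91 to 6.36 in HRAS+MYC arrays (median 6.13). Every MYC array was above both groups. Ntsr2 fell by 1.52 ± 0.386 (adjusted p 0.00267) and fell by 1.30 ± 0.355 (adjusted p 0.00506), and the differences were -1.02 and -0.80 without MYC replicate 6. Fgfr3, the gene of a fibroblast growth factor receptor found in ventricular zone cells and astrocytes, read 6.02 to 9.30 in MYC arrays (median 6.80), 6.15 to 6.45 in HRAS arrays and 6.00 to 6.59 in HRAS+MYC arrays. Its falls were 0.88 ± 0.337 (adjusted p 0.0442) and 0.79 ± 0.310 (adjusted p 0.0477). Without MYC replicate 6, at 9.30, they read -0.45 and -0.36 and did not pass (adjusted p 0.1 and 0.156). The first call also failed on omission of any one HRAS array, or of MYC replicate 2, and the second without any one HRAS+MYC array, or without MYC replicate 2 (adjusted p from 0.0539 and 0.0513). With MYC replicates 4 and 5 omitted, the differences of Fgfr3 were -1.34 and -1.25.

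Of the 8 regulators, 6 fell in HRAS against MYC and 7 in HRAS+MYC against MYC, and none rose in either (8 tested). Nfia, Nfib and Nfix encode nuclear factor I proteins, which drive the glial fate and the maturation of astrocytes. Nfia read 8.52 to 10.08 in MYC arrays (median 9.67), 6.91, 6.52, 8.43, 7.10 and 5.74 in HRAS arrays and 5.30 to 6.82 in HRAS+MYC arrays (median 5.97). All MYC arrays were above all arrays of both groups, HRAS replicate 3 by the least. Nfia fell by 2.59 ± 0.465 in HRAS against MYC (6.03-fold, adjusted p 6.51e-05) and fell by 3.57 ± 0.428 in HRAS+MYC against MYC (11.9-fold, adjusted p 1.51e-07). Nfib read 10.76 to 11.84 in MYC arrays (median 11.01), 9.63, 9.80, 9.57, 10.04 and 8.49 in HRAS arrays and 8.94 to 9.96 in HRAS+MYC arrays (median 9.45), again with no overlap with MYC. Nfib fell by 1.62 ± 0.241 and fell by 1.62 ± 0.222 (adjusted p 5.16e-06 and 1.23e-06). Nfix read 10.13 to 11.61 in MYC arrays (median 10.75), 9.65, 9.79, 9.40, 9.85 and 8.76 in HRAS arrays and 6.29 to 8.12 in HRAS+MYC arrays (median 7.39). The 3 groups did not overlap one another. Nfix fell by 1.26 ± 0.361 in HRAS against MYC (adjusted p 0.00723), by 3.38 ± 0.332 in HRAS+MYC against MYC (10.4-fold, adjusted p 4.56e-09) and fell by 2.12 ± 0.349 in HRAS+MYC against HRAS (4.34-fold, adjusted p 4.71e-05).

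Msi1 encodes an RNA-binding protein of neural stem cells. It read 7.37 to 8.93 in MYC arrays (median 8.06), 6.32, 6.03, 6.16, 6.07 and 5.51 in HRAS arrays and 5.63 to 7.07 in HRAS+MYC arrays (median 5.96). Every MYC array was above all of them. Msi1 fell by 2.10 ± 0.270 (adjusted p 5.52e-07) and fell by 1.96 ± 0.248 (adjusted p 3.52e-07). Lhx2, the gene of a LIM homeodomain factor of cortical progenitors, read 7.79 to 8.99 in MYC arrays (median 8.40), 5.95, 5.74, 8.50, 6.56 and 7.92 in HRAS arrays and 6.03 to 6.82 in HRAS+MYC arrays (median 6.27). HRAS replicates 3 and 5 overlapped the MYC arrays. Lhx2 fell by 1.46 ± 0.422 (adjusted p 0.00777) and fell by 2.02 ± 0.388 (adjusted p 1.47e-04). Nr2e1 encodes an orphan nuclear receptor needed for self-renewal of neural stem cells. It read 4.89 to 8.48 in MYC arrays (median 7.94), 5.47, 4.55, 5.60, 5.23 and 4.44 in HRAS arrays and 5.13 to 5.72 in HRAS+MYC arrays (median 5.42). MYC replicates 4 and 5 (5.08 and 4.89) lay with the HRAS arrays. Nr2e1 fell by 2.04 ± 0.492 (adjusted p 0.00163) and fell by 1.70 ± 0.452 (adjusted p 0.00397), and read -3.10 and -2.75 without those 2 arrays.

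Pax6 encodes a factor of radial glia that also promotes neurogenesis. It read 7.53 to 8.82 in MYC arrays (median 8.26), 8.64, 7.95, 8.27, 8.64 and 7.78 in HRAS arrays and 6.04 to 8.05 in HRAS+MYC arrays (median 7.63). HRAS+MYC replicates 1 and 2 (6.04 and 6.10) were the lowest, and the groups overlapped. Pax6 read 0.04 ± 0.350 in HRAS against MYC (adjusted p 0.958). It fell by 0.93 ± 0.322 in HRAS+MYC against MYC (adjusted p 0.0252) and missed the threshold on omission of HRAS+MYC replicate 1 or 2, or of MYC replicate 2 or 4 (adjusted p from 0.0525 to 0.0715). It also fell by 0.97 ± 0.338 from HRAS to HRAS+MYC arrays (adjusted p 0.0362) and missed the threshold on omission of HRAS+MYC replicate 1, 2 or 4, or of HRAS replicate 1, 3 or 4 (adjusted p from 0.05 to 0.0932). Hopx, the gene of an atypical homeodomain protein of outer radial glia and adult stem cells, read 6.14 to 7.18 in MYC arrays, 6.14 to 7.17 in HRAS arrays and 5.72 to 7.39 in HRAS+MYC arrays. It passed in none of the 3 comparisons (0.05 ± 0.262, 0.16 ± 0.240 and 0.11 ± 0.253, with adjusted p 0.922, 0.663 and 0.808).

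**Figure D3:**
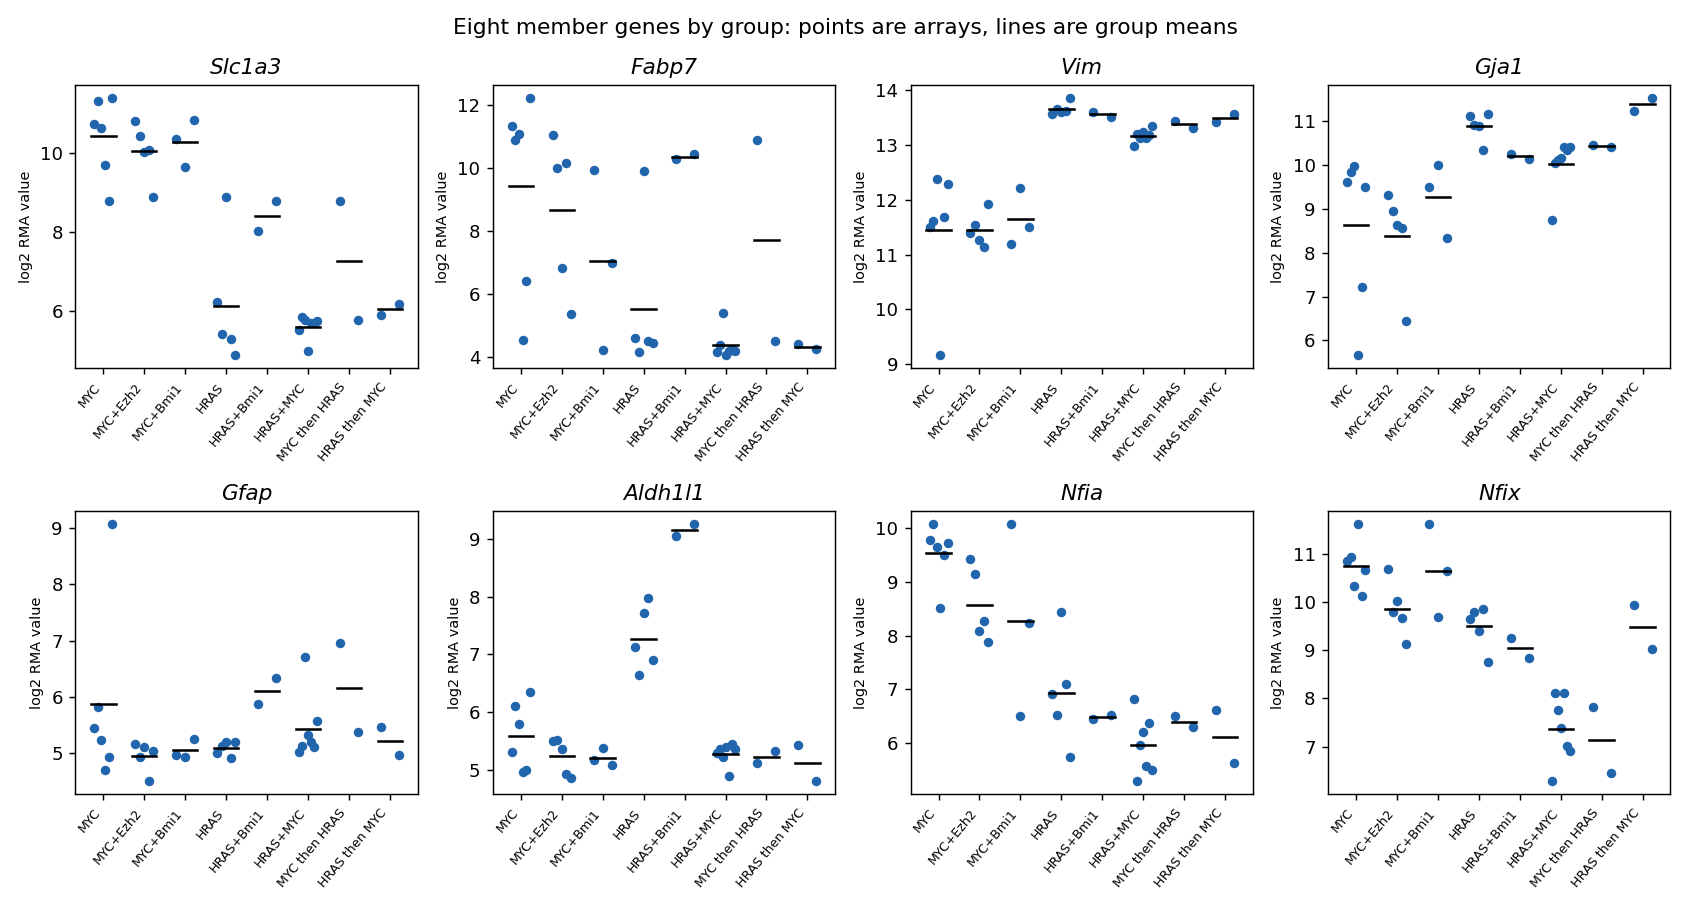
Log2 values (y axis) of 8 of the genes by group, with 1 point per array and a line at the group mean. HRAS arrays lie above MYC arrays in Vim, Gja1 and Aldh1l1 and below them in Nfia and Nfix. HRAS replicate 3 stands apart in Fabp7 (9.89) and Slc1a3 (8.87), and MYC replicate 6 in Gfap (9.08).

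Within the MYC group the genes varied far more than most. The median range over the 6 MYC arrays was 3.14 log2 units for the 34 genes and 0.65 for all genes, and 23 of the 34 spanned 2 units or more, against 7.07% of all genes. In the other groups the median range of the 34 lay between 0.21 (the 2 HRAS+Bmi1 arrays) and 1.10 (the 5 HRAS arrays). It was above that of all genes in each of them, as in HRAS (1.10 against 0.58), MYC+Bmi1 (1.02 against 0.38) and HRAS+Bmi1 (0.21 against 0.14). A range of 2 units or more was seen in 8 of the 34 in HRAS arrays (4.43% of all genes) and in 7 in MYC+Ezh2 arrays (2.34%). In HRAS+Bmi1 and in HRAS then MYC arrays 0 of the 34 had such a range. Groups differ in their number of arrays, and a range grows with that number. For each gene, deviations were taken from its median over the 6 arrays. The median deviation of the 34 genes was 0.05, 0.31, -0.04, -1.01, -0.75 and 0.74 in MYC replicates 1 to 6. Replicates 4 and 5 together held the 2 lowest values of 24 genes, and replicate 6 held the highest value of 18. The shares of all genes with these patterns were not counted. Replicate 4 was lowest in 14 genes and replicate 5 in 13.

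The genes with the widest range followed this split. Fabp7 read 11.35, 10.88, 11.09, 4.54, 6.42 and 12.23 in replicates 1 to 6. Sparcl1 read 10.04, 9.43, 9.70, 4.94, 6.88 and 11.48, and Mlc1 9.15, 10.19, 8.97, 5.41, 5.84 and 10.93. In these 3, replicates 4 and 5 lay more than 2 units below the other arrays. Gpr37l1 was also low in both (5.73 and 5.46) and highest in replicates 1 and 2 (10.74 and 11.04), with replicate 3 between at 7.91. Gfap (5.45, 5.83, 5.23, 4.71, 4.94 and 9.08), Aqp4 (4.97, 5.45, 5.41, 4.24, 4.41 and 7.52) and Ntsr2 (6.89, 7.11, 6.41, 7.48, 6.83 and 9.92) instead stood apart in replicate 6. Apoe read 12.28 in replicate 6 and 10.91 in replicate 2, against 7.41 to 9.47 in the other 4. The 8 regulators were divided. Nfib (11.84), Nfix (11.61), Pax6 (8.82) and Hopx (7.18) were highest in replicate 4, where Fabp7 and Gja1 were lowest. Nfia (8.52) and Msi1 (7.37) were lowest in replicate 4, and Nr2e1 (4.89) and Lhx2 (7.79) in replicate 5. The metabolic gene Acsl6 was highest in replicate 5 (8.20). Slc1a3 differed less, at 9.69 and 8.78 in replicates 4 and 5 against 10.63 to 11.39 in the others.

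**Figure D4:**
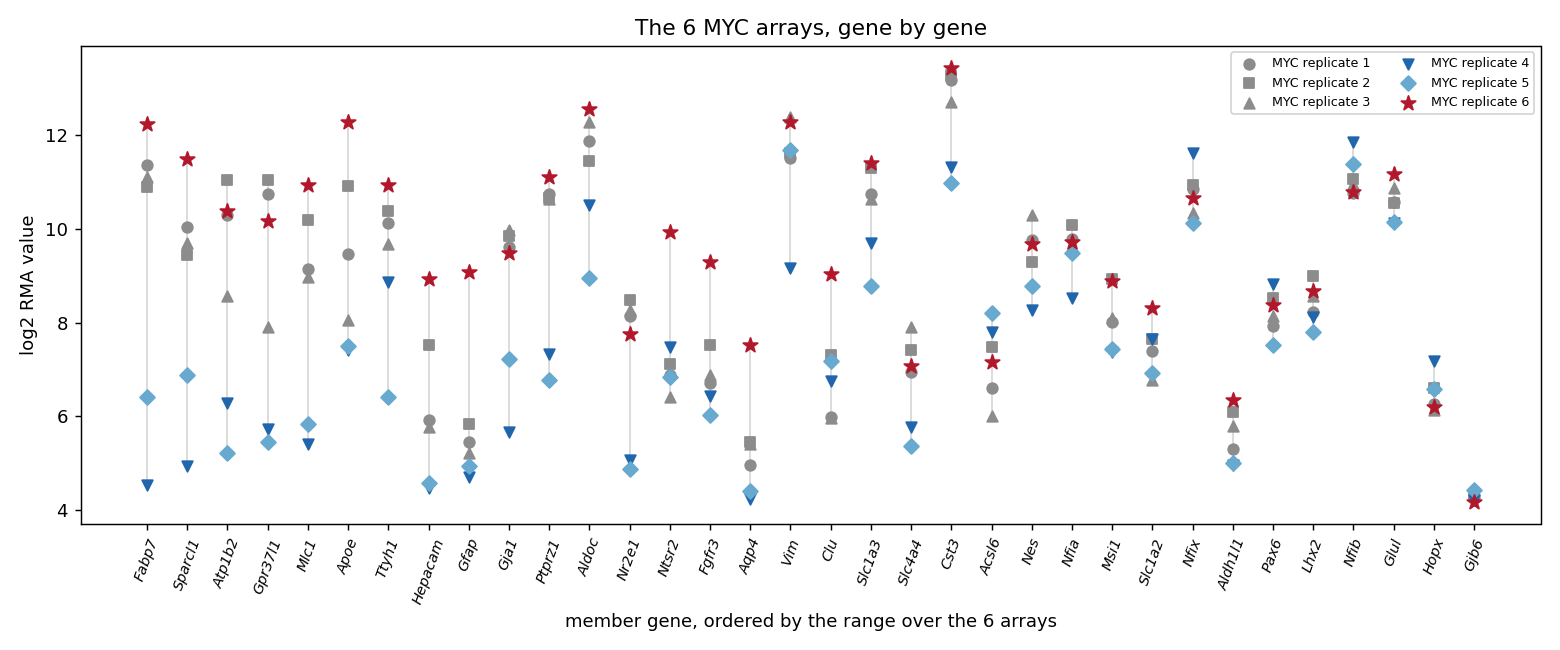
Log2 values (y axis) of the 34 genes in each of the 6 MYC arrays, with genes ordered by their range over these arrays from Fabp7 (7.69) to Gjb6 (0.26). Blue triangles and diamonds (replicates 4 and 5) are the 2 lowest in 24 genes, and red stars (replicate 6) are highest in 18.

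Markers of other lineages moved with this split, while other genes of the same programs showed it more weakly. In replicates 4, 5 and 6 the median deviation of the 34 genes was -1.01, -0.75 and 0.74. For 28 further astrocyte genes it was -0.37, -0.51 and 0.20. For 24 further radial glia and neural stem genes it was -0.55, -0.56 and -0.01. The median deviation of 16 neuronal genes was 1.32 and 1.08 in MYC replicates 4 and 5, and -0.46, -0.37, -0.18 and 0.51 in replicates 1, 2, 3 and 6. The median level of these 16 genes ran from 6.23 to 9.25 over the MYC arrays, against 5.60 to 6.33 in HRAS arrays. The neuronal factor gene Neurod1 read 10.55 and 10.83 in replicates 4 and 5 and 3.39 to 3.85 in the other MYC arrays. Not all neuronal genes followed it. Dcx read 8.67 and 8.98 in replicates 4 and 5 and 9.70 in replicate 6, and Tubb3 read 9.38, 9.66 and 9.49. Replicates 4 and 6 were each highest in 6 of the 16 genes and replicate 5 in 4, while replicate 4 was lowest in 2. For 13 genes of the oligodendrocyte lineage the median deviation was -1.53 and -1.37 in replicates 4 and 5, and from -0.09 to 0.83 in the others, and the median level over MYC arrays ran from 5.52 to 9.49. The stem cell factor gene Sox2 read 4.85 and 6.62 in replicates 4 and 5 and 10.74 to 11.58 in the others. Sox9, a factor upstream of the glial program, read 6.83 and 6.81 against 8.70 to 10.30. The median deviations of 12 microglial genes and of 11 endothelial and pericyte genes lay between -0.08 and 0.11 in all 6. Of the 11, 1 gene lay over 1 unit below its median in each of replicates 4 and 5, and 1 lay over 1 unit above it in replicate 6. The part of these other lineages in the values of the 34 genes was not tested.

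Adding Polycomb genes to MYC was compared next, since Ezh2 and Bmi1 belong to the complexes that silence developmental genes. In MYC+Ezh2 against MYC, 1 of the 34 genes passed (0.246% of all genes did, 0.13% higher and 0.115% lower), with a median of -0.41 against 0.02 over all genes. That gene was Slc1a2, at 6.24, 6.70, 6.26, 6.29 and 6.32 in MYC+Ezh2 arrays and 6.78 to 8.30 in MYC arrays, with no overlap. It fell by 1.09 ± 0.237 (adjusted p 0.0452). The call was lost in limma without any one of MYC+Ezh2 replicates 2 to 5 or MYC replicates 1, 2, 4, 5 and 6 (adjusted p from 0.0515 to 0.155). Without MYC replicates 4 and 5, 5 genes passed, all lower: Slc1a2, Apoe (-2.38), Mlc1 (-2.53), Hepacam (-1.84) and Ttyh1 (-2.16). In MYC+Bmi1 against MYC none of the 34 passed in limma (8 had an unadjusted p under 0.05, 0.15% of all genes passed, 0.1% higher and 0.0502% lower), and the median was -0.53. With array weights 1 passed, as it did without MYC+Bmi1 replicate 1, or without MYC replicate 5. With MYC replicates 4 and 5 omitted, 7 passed, all lower: Aldoc, Apoe, Mlc1, Hepacam, Slc4a4, Gpr37l1 and Ttyh1, from -1.12 to -3.38. The shares of all genes that passed with those arrays omitted are not given here, so the counts of 5 and 7 are not read as particular to the list. Fabp7 read 9.94, 4.21 and 6.99 in the 3 MYC+Bmi1 arrays and 11.04, 9.99, 6.82, 10.15 and 5.35 in MYC+Ezh2 arrays, so values spread widely in both groups.

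Adding Bmi1 to HRAS gave another picture. In HRAS+Bmi1 against HRAS, 8 of the 34 genes rose and 0 fell (23.5%, where 5.91% of all genes passed, 2.87% higher and 3.04% lower), with a median of 0.87 against -0.01 over all genes. Mlc1 read 9.89 and 10.03 in the 2 HRAS+Bmi1 arrays against 5.73 to 6.84 in HRAS arrays, and rose by 3.82 ± 0.942 (14.1-fold, adjusted p 0.0133). Apoe read 10.31 and 10.32 against 7.15 to 7.95, and rose by 2.77 ± 0.743 (6.81-fold, adjusted p 0.0234). Clu read 10.56 and 10.19 against 6.74 to 8.50, and rose by 2.53 ± 0.537 (adjusted p 0.00424). Aldh1l1, already high in HRAS arrays (6.64 to 7.97), read 9.05 and 9.27 and rose by 1.89 ± 0.321 (adjusted p 4.44e-04). In each of these 4 genes both arrays lay above every HRAS array. Slc4a4 rose by 1.68 (adjusted p 0.0230), Msi1 by 1.58 (adjusted p 0.00943), Hopx by 1.20 (adjusted p 0.0471) and Nes by 1.13 (adjusted p 0.0498). Fabp7 read 10.28 and 10.45, above all HRAS arrays including replicate 3 at 9.89, and did not pass (4.85 ± 1.87, adjusted p 0.139). Gfap read 5.88 and 6.34 against 4.92 to 5.21 and did not pass (adjusted p 0.480), while the nuclear factor I genes read -0.46 (Nfia), -0.25 (Nfib) and -0.44 (Nfix). With 2 arrays the calls rest on the spread of the other groups. Without HRAS+Bmi1 replicate 1, 1 gene passed (Aldh1l1), without replicate 2, 2 passed, and without HRAS replicate 3, 11 passed. Apoe, Mlc1, Msi1 and Slc4a4 lost their calls without either HRAS+Bmi1 array (adjusted p up to 0.259), and Clu without replicate 1 (adjusted p 0.140). Hopx and Nes lost theirs without either HRAS+Bmi1 array, or without HRAS replicate 1, 2 or 4, and Nes also without HRAS replicate 5 (adjusted p from 0.0550 to 0.654).

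The differences made by Bmi1 in MYC and in HRAS cultures were set against each other in the same fit. For 6 of the 34 genes they differed (2.43% of all genes did, 1.1% higher and 1.33% lower), all with the smaller value in MYC cultures. They were Mlc1 (-5.44 ± 1.23, adjusted p 0.0169), Apoe (-3.89 ± 0.973, adjusted p 0.0300), Clu (-3.47 ± 0.703, adjusted p 0.00691), Aldh1l1 (-2.27 ± 0.420, adjusted p 0.00271), Slc4a4 (-2.20 ± 0.588, adjusted p 0.0418) and Glul (-1.21 ± 0.331, adjusted p 0.0462). Aldh1l1 kept its call whichever of the 16 arrays was left out. Clu lost it without HRAS+Bmi1 replicate 1 (adjusted p 0.0926), Mlc1 without either HRAS+Bmi1 array or MYC+Bmi1 replicate 3, and Apoe without either HRAS+Bmi1 array or MYC+Bmi1 replicate 2 or 3 (adjusted p up to 0.120 and 0.183). Slc4a4 and Glul lost theirs in 12 of the 16, namely every MYC+Bmi1 and HRAS+Bmi1 array, HRAS replicates 1, 2, 4 and 5 and MYC replicates 1, 2 and 3 (adjusted p up to 0.229 and 0.266). Once MYC replicates 4 and 5 were omitted, 13 genes differed, and without HRAS replicate 3, 10. The shares of all genes with those arrays omitted are not given here, so these counts are not read as particular to the list. Between 1 and 3 differed without either HRAS+Bmi1 array or MYC+Bmi1 replicate 2 or 3.

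**Figure D5:**
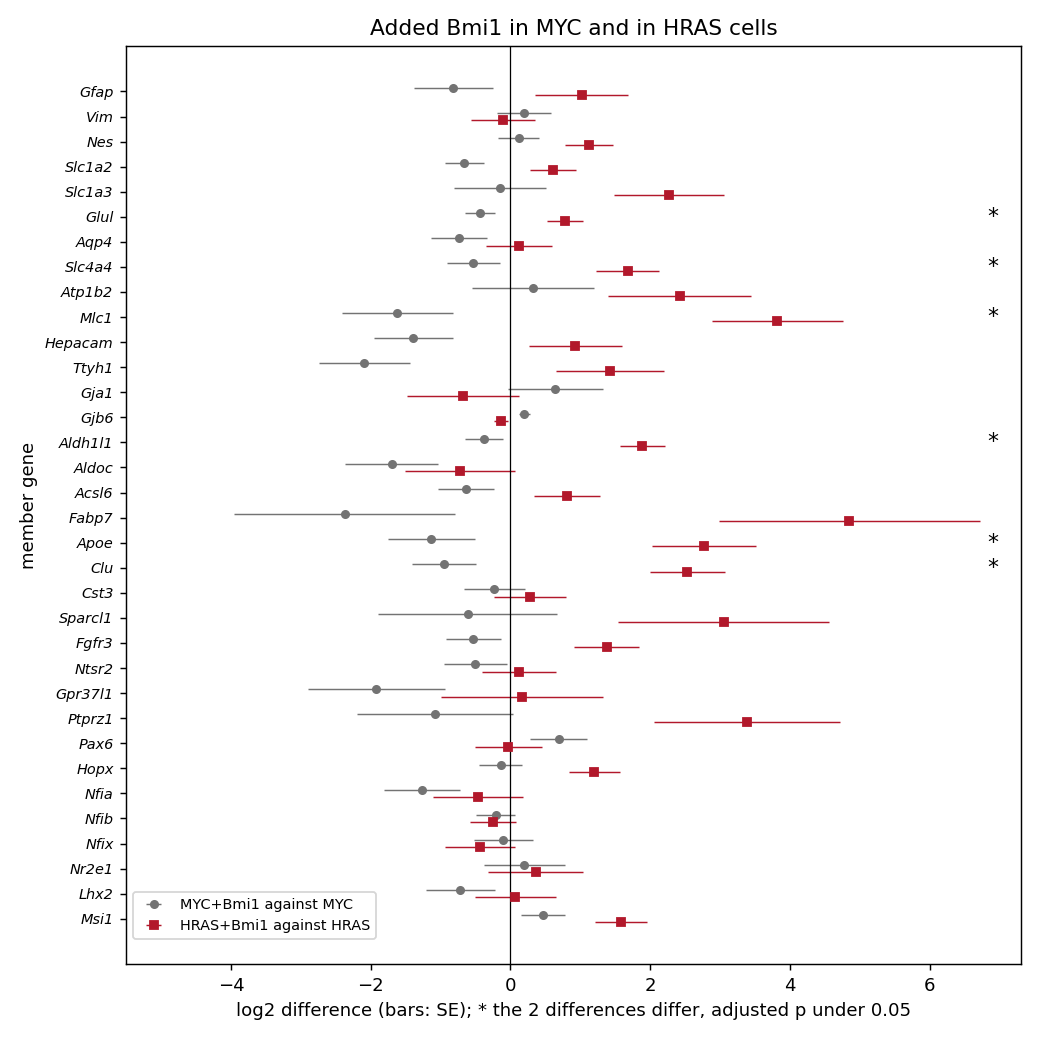
Log2 differences (x axis, with the standard error of the fit as bars) of the 34 genes when Bmi1 was added to MYC (grey circles) and to HRAS (red squares). Stars mark the 6 genes whose differences were unlike each other at an adjusted p under 0.05, with Mlc1 furthest apart.

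The secondary tumours show what followed when the second oncogene came later. In MYC then HRAS against MYC, 11 of the 34 genes fell and 4 rose (44.1%, where 20.4% of all genes passed, 9.83% higher and 10.6% lower), with a median of -1.31 against 0.03 over all genes. Among the regulators, Nfix read 7.82 and 6.46, Nfia 6.50 and 6.30, Nfib 9.46 and 9.12 and Msi1 6.03 and 5.77, each below every MYC array. The differences were -3.61 ± 0.487, -3.13 ± 0.628, -1.84 ± 0.325 and -2.22 ± 0.364 (adjusted p 3.83e-06, 5.49e-04, 1.39e-04 and 5.18e-05). Vim rose by 1.93 ± 0.447 (adjusted p 0.00225) and Slc1a2 fell by 1.67 ± 0.320 (adjusted p 3.50e-04). These 6 calls were kept whichever array was left out. Slc1a3 fell by 3.15 ± 0.764 (adjusted p 0.00343), but its 2 arrays read 8.77 and 5.77, and without replicate 2 the difference was -1.65 (adjusted p 0.320). Ttyh1 (-1.82 without replicate 2, adjusted p 0.299), Acsl6 (1.00, adjusted p 0.360), Pax6 (-0.61, adjusted p 0.634) and Hopx (0.97, adjusted p 0.231) also lost their calls without that array. Hopx also lost its call without replicate 1 (adjusted p 0.0502), and Pax6 without any of MYC replicates 1, 2, 3, 4 and 6. Lhx2, Nr2e1 and Clu lost theirs without either MYC then HRAS array, and Glul without replicate 1 (adjusted p up to 0.116, 0.223, 0.303 and 0.391). Nr2e1 lost its call also without MYC replicate 1, 2, 3 or 6, Clu without MYC replicate 1 or 3 and Glul without MYC replicate 3 or 6. Without MYC then HRAS replicate 2, 7 genes passed, and without MYC replicates 4 and 5, 22.

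The 2 MYC then HRAS cultures differed from each other by 2 units or more in 7 of the 34 genes (0.476% of all genes did). Among them, Fabp7 read 10.89 and 4.52, Sparcl1 9.66 and 4.87, Mlc1 8.43 and 5.80 and Aldoc 11.23 and 8.45. In all 4 genes replicate 1 lay above every HRAS+MYC array and replicate 2 lay within the HRAS+MYC range, and Slc1a3 (8.77 and 5.77) did the same. Ptprz1 ran from 5.23 to 7.76, with both arrays inside its HRAS+MYC range (3.74 to 9.30). Atp1b2 ran from 5.41 to 7.80, with 1 array below and 1 above its HRAS+MYC range (5.55 to 6.84). Gfap was higher in replicate 1 as well (6.96 against 5.38). Gja1 (10.46 and 10.41), Vim (13.44 and 13.31), Nes (9.43 and 9.52), Hopx (7.47 and 7.90) and Hepacam (4.89 in both) did not show that gap. Against HRAS+MYC, none of the 34 genes passed in limma (2 had an unadjusted p under 0.05, and 0.11% of all genes passed, 0.0702% higher and 0.0401% lower), and the median was 0.22.

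In HRAS then MYC against HRAS, 4 of the 34 genes fell and 0 rose (11.8%, where 12.5% of all genes passed, 6.3% higher and 6.21% lower), a share near the background. Aldh1l1 read 5.43 and 4.80 against 6.64 to 7.97 in HRAS arrays and fell by 2.15 ± 0.321 (adjusted p 5.29e-05), kept whichever array was left out. Pax6 (6.57 and 5.60), Nes (8.98 and 8.40) and Acsl6 (6.99 and 5.97) lay below every HRAS array and all fell, with differences of -2.17, -1.55 and -1.68 (adjusted p 0.00319, 0.00319 and 0.0176). These 3 calls were lost without HRAS then MYC replicate 2 (-1.69, -1.26 and -1.17, with adjusted p 0.161, 0.142 and 0.379). Against HRAS+MYC, 3 of the 34 passed (12.1% of all genes did, 6.89% higher and 5.17% lower). Ptprz1 read 3.26 and 3.18, below all HRAS+MYC arrays, and fell by 4.70 ± 1.28 (26-fold, adjusted p 0.0140). Nfix read 9.94 and 9.02, above all HRAS+MYC arrays, and rose by 2.11 ± 0.478 (adjusted p 0.00347), while Acsl6 fell by 1.54 ± 0.451 (adjusted p 0.0226). Each of the 3 lost its call without 1 of the 2 arrays: Ptprz1 without either (adjusted p 0.119 and 0.168), Nfix without replicate 1 (1.65, adjusted p 0.145) and Acsl6 without replicate 2 (-1.03, adjusted p 0.491). In MYC then HRAS against HRAS then MYC, Acsl6 rose by 2.23 ± 0.563 (adjusted p 0.0222) and Nfix fell by 2.34 ± 0.597 (adjusted p 0.0239), 2 of 34 where 3.28% of all genes passed (1.7% higher and 1.58% lower). Nfix kept its call only without MYC then HRAS replicate 1, and Acsl6 lost its call without replicate 2 of either group.

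Other genes of the same programs were counted from lists without any of the 34. The share of all genes that passed was 33.4% in HRAS against MYC (15.4% higher and 18% lower) and 34.2% in HRAS+MYC against MYC (15.8% higher and 18.4% lower). Of 32 measured Notch and gliogenic regulators, 9 rose and 8 fell in HRAS against MYC, and 4 rose and 13 fell in HRAS+MYC against MYC (53.1% passed in each). In HRAS against MYC the Notch ligand gene Jag1 rose by 2.03 ± 0.338, the Notch target gene Hes1 by 1.54 ± 0.212 and the glial factor gene Sox9 by 1.71 ± 0.441, whereas the ligand genes Dll1 and Dll3 read -2.50 ± 0.394 and -2.37 ± 0.428 and fell. Of 24 further radial glia and neural stem genes, 4 rose and 12 fell in HRAS against MYC, and 0 rose and 15 fell in HRAS+MYC against MYC (66.7% and 62.5% passed). The matrix gene Tnc rose by 4.85 ± 0.554 in HRAS against MYC and fell by 4.71 ± 0.536 in HRAS+MYC against HRAS, and the proteoglycan gene Bcan fell in both comparisons with MYC (-3.22 ± 0.727 and -3.89 ± 0.668). Of 28 further astrocyte genes, 4 rose and 8 fell in HRAS against MYC, and 5 rose and 13 fell in HRAS+MYC against MYC. Of these 28 genes 42.9% and 64.3% passed, the first not far from the share of all genes. The phagocytic receptor gene Mertk rose by 4.00 ± 0.246 in HRAS against MYC, and the potassium channel gene Kcnj10 fell by 2.31 ± 0.677.

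Genes of reactive astrocytes, which are switched on after injury, went the other way from most of the 34. Of 20 measured, 14 rose and 0 fell in HRAS against MYC (70%, median 1.28), and 12 rose and 0 fell in HRAS+MYC against MYC (60%, median 0.75), where 33.4% and 34.2% of all genes passed. The protease inhibitor gene Timp1 rose by 5.62 ± 0.265 and 5.22 ± 0.243. In HRAS+MYC against HRAS, 4 rose and 4 fell (40%, where 24.7% of all genes passed), among them the prostaglandin synthase gene Ptgs2 (3.28 ± 0.350) and the protease inhibitor gene Serpina3n (-4.25 ± 0.411). Neuronal markers fell in 8 of 16 genes and rose in 1 in HRAS against MYC, and fell in 9 and rose in 1 in HRAS+MYC against MYC (56.2% and 62.5% passed). Of 13 oligodendrocyte lineage markers, 5 fell in HRAS against MYC (38.5%, near the 33.4% of all genes) and 8 fell in HRAS+MYC against MYC (61.5%, against 34.2%), and none rose in either. The median level of the 13 per array ran from 5.54 to 6.68 in HRAS arrays, 5.65 to 5.90 in HRAS+MYC arrays and 5.52 to 9.49 in MYC arrays. The part of these lineages in the falls of the 34 genes was not tested.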

How the data were processed

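RNA of 32 cultures in 8 groups was hybridised to Mouse Gene 1.0 ST arrays (Affymetrix). The deposited values are log2 RMA values, and the submitters' processing notes name Expression Console 1.0 as the program, so background and scale had been set before deposit. GEO's platform annotation gives a single symbol for 21789 of 35557 probe sets and several for 1621, and does not list 12147. Each of 19938 genes was read from its 1-symbol probe set with the highest mean (Glul, Nfia and Nfib have 2). limma 3.58.1 (R 4.3.3) fitted 1 mean per group over all 32 arrays with 24 residual degrees of freedom. P-values were adjusted by Benjamini-Hochberg over all genes, separately for each of 12 comparisons, and an adjusted p under 0.05 passed. The script was tested on simulated data with the same spread in every group, so the unequal spread of these genes was not covered.

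The 34 genes, the other lists and the alternatives were chosen with earlier results of these data known. The results with HRAS replicate 3 left out together with MYC replicates 4 and 5 were added after seeing the data. Every one of the 34 genes was reported, and from the other lists up to 3 genes in each direction that passed with the largest differences. Outside that rule, Neurod1, Dcx, Tubb3 and Sox2 were picked by name for the MYC arrays, as were the single markers of host cells. The number of arrays limits the precision, most of all in groups of 2.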

Additional observations from a re-analysis of the deposited data

Results flagged for a closer look

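Within groups of 4 to 10 arrays, the highest or lowest array was set against the rest by the ratio of its gap to the whole range. Of 136 gene and group pairs, 18 passed Dixon's critical value, where chance gives about 1 in 20 for independent pairs. Genes read on the same arrays are not independent, and the share of all genes that passed was not counted. The 18 are therefore listed without being read as an excess. In MYC arrays these were Gfap (9.08), Aqp4 (7.52) and Ntsr2 (9.92) in replicate 6, each the highest, and Vim (9.16) in replicate 4, the lowest. In HRAS arrays they were Fabp7 (9.89, others 4.17 to 4.60) and Sparcl1 (11.33, others 5.67 to 6.67) in replicate 3, and Aldoc (10.82) in replicate 5, all the highest.

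In HRAS+MYC arrays, replicate 3 was highest in Gfap (6.71), Aqp4 (5.53) and Fabp7 (5.38). The lowest were Gja1 in replicate 1 (8.74, others 10.04 to 10.42), Ptprz1 in replicate 2 (3.74, others 7.82 to 9.30), Slc1a3 in replicate 4 (4.99) and Aldh1l1 in replicate 5 (4.88). In MYC+Ezh2 arrays, Hopx (6.81) and Fgfr3 (6.98) were highest in replicate 1 and Slc1a2 (6.70) in replicate 2, while Gja1 was lowest in replicate 5 (6.44, others 8.56 to 9.32).

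The difference made by Bmi1 in MYC cultures minus that in HRAS cultures passed in limma for 6 genes. It was -5.44 for Mlc1, -3.89 for Apoe, -3.47 for Clu, -2.27 for Aldh1l1, -2.20 for Slc4a4 and -1.21 for Glul (adjusted p from 0.00271 to 0.0462).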

How the results depend on the processing

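Of 2000 alternative values of the 101 called differences, 1720 kept their direction and side of the threshold, 280 kept the direction only and 0 reversed. Counts of passing genes moved by over 1.5 times as follows, and the cause was not tested. Shares of all genes under these settings are not given, so the counts are not read as particular to the list. HRAS against MYC gave 14 (3 higher, 11 lower) when only the groups compared were fitted. MYC+Ezh2 against MYC gave 0 with quantile normalization, with a replicate block and with only the groups compared, 4 with array weights and 5 without MYC replicates 4 and 5. MYC+Bmi1 against MYC gave 1 with array weights and 7 without MYC replicates 4 and 5. HRAS+Bmi1 against HRAS gave 16 with array weights. MYC then HRAS against MYC gave 24 with array weights and 7 with only the groups compared. HRAS then MYC against HRAS+MYC gave 7 and 6, and MYC then HRAS against HRAS then MYC gave 1 with only the groups compared. The Bmi1 difference gave 14 with array weights (1 higher, 13 lower), 0 with only the groups compared and 13 without MYC replicates 4 and 5.

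Leaving out each array in turn gave 21 to 28 genes in HRAS against MYC, 25 to 27 in HRAS+MYC against MYC and 4 to 7 in HRAS+MYC against HRAS. It gave 0 to 1 in MYC+Ezh2 and in MYC+Bmi1 against MYC, 1 to 11 in HRAS+Bmi1 against HRAS and 1 to 10 in the Bmi1 difference. It gave 7 to 21 in MYC then HRAS against MYC, 1 to 4 in HRAS then MYC against HRAS and against HRAS+MYC, and 0 to 2 between the secondary tumours.

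Replicate numbers are shared between groups, but in none of the comparisons made here with 3 or more shared numbers did every same-numbered pair deviate together. The correlation r ran from -0.06 to 0.02 in HRAS against MYC, -0.09 to 0.12 in HRAS+MYC against MYC, -0.02 to 0.07 in HRAS+MYC against HRAS, -0.26 to 0.34 in MYC+Ezh2 against MYC and -0.24 to 0.23 in MYC+Bmi1 against MYC. Between MYC+Ezh2 and MYC+Bmi1, which were not compared, all 3 pairs read 0.22 to 0.43, and 5 of 6 arrays were closest to their own number. With the replicate number as a block, 23 genes passed in HRAS against MYC, 26 in HRAS+MYC against MYC and 6 in HRAS+MYC against HRAS.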
